A study of Homo sapiens with 4 samples.

Results

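Alpha- and beta-tubulin are the building blocks of microtubules. The 10 genes described here encode alpha-tubulins (TUBA1A, TUBA1B, TUBA1C and TUBA4A) and beta-tubulins (TUBB, TUBB2A, TUBB2B, TUBB3, TUBB4B and TUBB6). Every probe that the platform annotation assigned to 1 of these symbols alone was taken, which gave 14 probes of the 47231 on each array, and 10 of 20046 named genes. TUBB, TUBA1A, TUBA1C and TUBB6 had 2 probes each and the other 6 genes had 1.

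The arrays were hybridised with RNA of LNCaP, a human prostate cancer cell line kept in RPMI medium with fetal bovine serum. In one group the cells had been transfected with miR-31 and in the other with the control microRNA miR-NC, both at 50 nM for 48 h, with 2 arrays per group. The labels number the arrays as repeats without saying whether the repeats were separate cultures, and a p-value here reflects the spread of these arrays alone, which may be technical. Pairs of prostate cancer and benign tissue named in the series' design text were not analysed here. The comparison asked which messenger RNAs differ when miR-31 is raised. The labels do not give the sequence of miR-NC.

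Microtubules are hollow polymers of alpha-beta dimers, which carry cargo, give cells their shape and form the mitotic spindle. The genes of each family encode very similar proteins, called isotypes, which differ mostly near the carboxyl terminus and in the tissues that use them. Cells also adjust tubulin messenger RNA to the pool of free dimers: when that pool grows, TTC5 recognises newly made tubulin chains on the ribosome and starts the decay of their messenger RNAs. A microRNA such as miR-31 acts by pairing its seed with sites in messenger RNAs. The mature miR-31-5p sequence from RefSeq (GRCh38.p14, chr9:21512158-21512178, minus strand) is printed for the seed of the main arm of miR-31; the labels do not give the arm or sequence that was transfected. Capitals mark the seed, bases 2 to 8.

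hsa-miR-31-5p: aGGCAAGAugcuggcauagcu

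No transcript sequences were used here, so seed matches in tubulin messenger RNAs were not searched. The regions around the tubulin starts were searched for 2 short motifs. Both were searched on both strands. CCAAT is the core of the box bound by NF-Y, common in promoters of cycling cells. TTTGAA is the core of the cell cycle homology element bound by the MuvB complex. The windows run from 250 bases before to 50 bases after each start in RefSeq (GRCh38.p14), and all 10 genes were matched by symbol, with 15 windows. The 5 windows printed here, 5′ to 3′, belong to the genes with a probe past the test's threshold, and capitals mark a motif on either strand. For TUBB and TUBB3, which have several listed starts, the window that holds a motif is shown.

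TUBA1A, chr12:49189031-49189330, minus strand: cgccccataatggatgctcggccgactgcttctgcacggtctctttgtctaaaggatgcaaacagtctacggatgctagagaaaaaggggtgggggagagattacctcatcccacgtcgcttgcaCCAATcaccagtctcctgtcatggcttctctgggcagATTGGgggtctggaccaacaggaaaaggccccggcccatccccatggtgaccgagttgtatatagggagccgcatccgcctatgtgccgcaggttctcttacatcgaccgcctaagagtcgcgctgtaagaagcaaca
TUBA1B, chr12:49131346-49131645, minus strand: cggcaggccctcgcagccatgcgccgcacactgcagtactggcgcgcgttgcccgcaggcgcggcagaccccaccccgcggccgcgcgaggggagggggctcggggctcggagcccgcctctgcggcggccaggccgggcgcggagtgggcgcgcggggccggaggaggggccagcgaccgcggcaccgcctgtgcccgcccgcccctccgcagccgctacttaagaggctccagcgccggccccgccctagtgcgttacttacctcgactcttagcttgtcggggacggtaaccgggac
TUBA4A, chr2:219253869-219254168, minus strand: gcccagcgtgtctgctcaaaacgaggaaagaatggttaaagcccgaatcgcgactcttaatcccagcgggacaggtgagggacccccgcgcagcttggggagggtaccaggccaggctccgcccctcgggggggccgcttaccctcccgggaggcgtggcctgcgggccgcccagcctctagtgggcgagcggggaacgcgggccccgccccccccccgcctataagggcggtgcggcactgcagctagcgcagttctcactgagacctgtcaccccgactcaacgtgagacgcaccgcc
TUBB, chr6:30720102-30720401, plus strand: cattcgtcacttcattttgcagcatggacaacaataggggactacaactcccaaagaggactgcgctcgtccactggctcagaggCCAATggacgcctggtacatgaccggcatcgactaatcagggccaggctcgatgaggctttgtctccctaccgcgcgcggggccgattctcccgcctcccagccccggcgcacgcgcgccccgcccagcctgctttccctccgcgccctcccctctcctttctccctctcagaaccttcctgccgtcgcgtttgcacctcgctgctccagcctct
TUBB3, chr16:89923092-89923391, plus strand: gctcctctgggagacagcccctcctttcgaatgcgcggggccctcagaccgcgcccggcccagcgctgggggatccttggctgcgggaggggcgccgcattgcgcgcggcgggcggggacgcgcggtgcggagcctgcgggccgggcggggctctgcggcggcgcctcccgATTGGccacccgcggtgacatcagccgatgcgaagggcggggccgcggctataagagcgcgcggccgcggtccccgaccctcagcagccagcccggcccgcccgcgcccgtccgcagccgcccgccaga

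CCAAT was present in 9 of the 15 windows (7 of 10 genes), against 34.6% of the 35116 windows of that length in RefSeq. Windows of TUBA1C overlap in 1 pair and share a CCAAT site, and with that pair merged CCAAT was present in 8 of 14 regions and TTTGAA in 3 of 14. It occurred at 2 places in the TUBA1A window and at 1 each in those of TUBB and TUBB3, and the TUBA1B and TUBA4A windows held neither motif. TTTGAA was present in 4 of the 15 windows (2 of 10 genes), against 15.2% of all windows. Those windows belong to TUBA1C and TUBB4B, neither of which passed the threshold. No CCAAT match overlapped a TTTGAA match. A match describes the letters only.

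Values below are log2 signals after background correction and quantile normalization of the deposited intensities. Testing was limited to probes whose detection p, the chance of such a signal from background, fell below 0.05 in 2 or more of the 4 arrays. Changes are miR-31 minus miR-NC with the standard error (SE) of limma's fit over 18354 tested probes, and the threshold was a Benjamini-Hochberg adjusted p of 0.05. Between 34.6% and 40.7% of probes were detected per array, and Pearson's r across probes was 0.979 and 0.983 within the groups and 0.953 to 0.973 between them. Of 7 luminal prostate markers with a probe, 6 were detected on all 4 arrays (KLK2, KLK3, KRT8, FOLH1, HOXB13 and TMPRSS2), while KRT18 was detected on 1. Among these 6, TMPRSS2 was lower in miR-31 (log2 change −0.72, limma adjusted p = 0.0191). The others did not pass, at −0.71 for KLK2, −0.32 for FOLH1, −0.23 for KLK3, −0.19 for HOXB13 and 0.18 for KRT8. None of the 3 basal markers with a probe (KRT5, KRT14 and KRT15) was detected on any array. In bulk RNA, fewer cells of a type and less RNA per cell cannot be told apart.

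Tubulin genes went both ways in miR-31 cells. Of the 14 probes, 12 were tested, covering 9 genes: 4 were lower, for TUBA1A, TUBA1B, TUBA4A and TUBB, and 1 was higher, for TUBB3. Among all tested probes 6.17% passed the threshold, 4.07% lower and 2.1% higher. The other 7 tested probes did not pass, and among them were second probes of TUBA1A and TUBB. The median log2 change of the 12 probes was −0.01, the same to 2 decimals as that of all tested probes (−0.01), with 6 negative and 6 positive values. The groups did not overlap in 4 lower and 1 higher tubulin probes, the same that passed, against 51.5% of all tested probes (27.6% lower and 24% higher). The share without overlap was therefore not above the background.

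**Figure D1:**
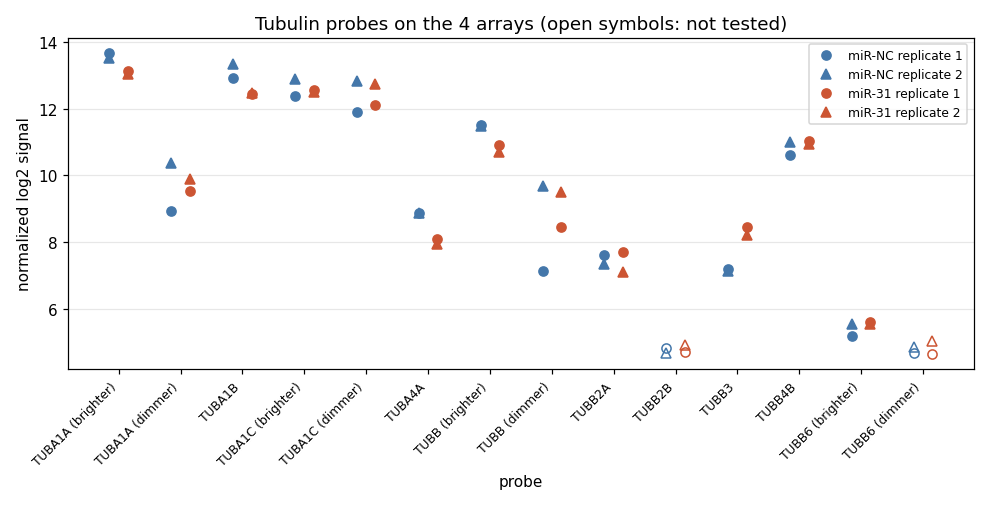
Normalized log2 signal (vertical axis) of the 14 tubulin probes (horizontal axis) on each of the 4 arrays, with colours for the groups, circles for replicate 1 and triangles for replicate 2; open symbols are probes that were not tested. In TUBA1B, TUBA4A, TUBB3 and the brighter probes of TUBA1A and TUBB the miR-NC and miR-31 arrays do not overlap, and the dimmer TUBB probe spreads from 7.14 to 9.67 within miR-NC.

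Among the alpha-tubulins, TUBA4A showed the largest fall. Its gene, on chromosome 2, encodes an isotype abundant in brain, muscle and platelets that, unlike most other human alpha-tubulins, lacks the carboxyl-terminal tyrosine in its coding sequence. Its probe read 8.86 and 8.86 on the miR-NC arrays and 8.08 and 7.93 on the miR-31 arrays. Both miR-31 arrays were below both miR-NC arrays, and the difference exceeded the spread within miR-NC (SD 0.0011, n = 2) and within miR-31 (SD 0.10, n = 2). TUBA4A fell 1.81-fold (log2 change −0.86 ± 0.19, SE; 95% confidence interval −1.29 to −0.43; limma adjusted p = 0.0343). The call was lost without miR-NC replicate 1 (−0.85, adjusted p = 0.0764) and with no filter on dim probes (adjusted p = 0.0679).

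TUBA1A, TUBA1B and TUBA1C lie near each other on chromosome 12 and encode nearly identical proteins. TUBA1A is the main alpha-tubulin of developing neurons, while TUBA1B and TUBA1C are made in most dividing cells. Because these genes share long stretches of sequence, and the probe sequences were not used here, which of them each probe reads is uncertain.

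The TUBA1B probe read 12.91 and 13.35 on the miR-NC arrays and 12.43 and 12.48 on the miR-31 arrays. Both miR-31 arrays were lower, and the miR-NC arrays lay farther apart from each other than the miR-31 arrays did. TUBA1B fell 1.59-fold (log2 change −0.67 ± 0.16, SE; 95% confidence interval −1.03 to −0.32; limma adjusted p = 0.0402). The call was lost without miR-NC replicate 2 (−0.45, adjusted p = 0.0664), with cyclic loess in place of quantile normalization (adjusted p = 0.0631) and with the authors' normalized values (adjusted p = 0.0527).

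At its brighter probe (ILMN_2148819), TUBA1A read 13.67 and 13.53 on the miR-NC arrays against 13.13 and 13.04 on the miR-31 arrays. The unnormalized signals of 14323.9 and 11789.1 in miR-NC against 7908.1 and 8507.6 in miR-31 did not overlap either. The median signal over all probes was 82.5 and 74.6 on the miR-31 arrays against 92.5 and 86.4 in miR-NC. Most probes were not detected, so these medians lie near background and do not measure how bright detected probes were. The array with the lowest median, miR-31 replicate 2, had the most probes detected (40.7%). Unnormalized signals of the TUBA1C probe ILMN_3251341, which did not pass, also did not overlap (6587.7 and 7069 against 5137.3 and 5907.5). A lower unnormalized signal alone is therefore no separate support for a fall. The brighter TUBA1A probe fell 1.43-fold (log2 change −0.52 ± 0.12, SE; 95% confidence interval −0.79 to −0.24; limma adjusted p = 0.0402), the smallest of the 4 falls. Its call was lost without miR-NC replicate 1 (−0.48, adjusted p = 0.0913) and with cyclic loess (adjusted p = 0.0759). The other TUBA1A probe (ILMN_1742981) read 8.94 and 10.36 in miR-NC against 9.54 and 9.90 in miR-31. Both miR-31 values lay between the miR-NC values, and the change of 0.07 ± 0.38 (SE) did not pass (limma adjusted p = 0.942). That probe passed as higher without miR-NC replicate 2 (0.79, adjusted p = 0.0338) and stood at −0.64 without miR-NC replicate 1 (adjusted p = 0.128), so 1 array decides its sign.

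Neither TUBA1C probe passed. The probe ILMN_3251341 read 12.38 and 12.89 in miR-NC against 12.55 and 12.51 in miR-31, a change of −0.10 ± 0.17 (SE; limma adjusted p = 0.792). The probe ILMN_1742167 read 11.89 and 12.83 in miR-NC against 12.11 and 12.73 in miR-31, a change of 0.06 ± 0.29 (SE; limma adjusted p = 0.930). Its values on both arrays numbered 2 were above those on both arrays numbered 1. In both probes the miR-31 values lay inside the miR-NC range. The 95% confidence intervals, −0.48 to 0.28 and −0.59 to 0.72, reach down close to the TUBA1A change of −0.52 in the first probe and past it in the second.

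**Figure D2:**
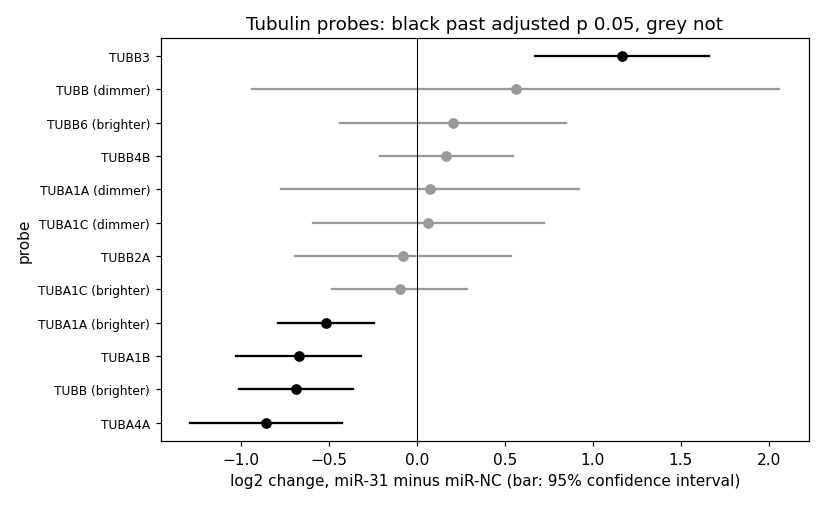
Log2 change between groups, miR-31 minus miR-NC, for the 12 tested tubulin probes (points) with 95% confidence intervals (bars); black marks probes past an adjusted p of 0.05 and grey the others. TUBA4A, TUBB (brighter probe), TUBA1B and TUBA1A (brighter probe) lie between −0.86 and −0.52 and TUBB3 at 1.16, and the dimmer TUBB probe has the widest interval, −0.94 to 2.06.

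Among the beta-tubulins 1 probe fell and 1 rose. TUBB, on chromosome 6, encodes the beta-tubulin isotype made in nearly all tissues and the most abundant one in many dividing cells. Its brighter probe (ILMN_2101885) read 11.51 and 11.48 on the miR-NC arrays and 10.91 and 10.70 on the miR-31 arrays, from signals before normalization of 3771.9 and 2640.8 against 1558 and 1733.2. The groups did not overlap on either scale, though before normalization the median signal over all probes, which lies near background, was lower on both miR-31 arrays. The probe fell 1.61-fold (log2 change −0.69 ± 0.14, SE; 95% confidence interval −1.01 to −0.37; limma adjusted p = 0.0254).

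The dimmer TUBB probe (ILMN_1665583) gave another picture. It read 7.14 and 9.67 on the miR-NC arrays and 8.44 and 9.50 on the miR-31 arrays, from signals of 232.2 and 801.6 against 309.9 and 797.5. Both arrays numbered 2 were more than 2-fold above both arrays numbered 1, whatever their group. In 0.648% of all tested probes replicate 2 was at least 2-fold above replicate 1 in both groups, and no other tubulin probe was among them. Only 0.234% of all tested probes differed more between the arrays numbered 1 and 2, averaged over the groups. The change between groups was 0.56 ± 0.66 (SE; 95% confidence interval −0.94 to 2.06) and did not pass (limma adjusted p = 0.692). Without miR-NC replicate 2 this probe passed as higher (1.84, adjusted p = 0.000495) and without miR-NC replicate 1 it stood at −0.69 (adjusted p = 0.253).

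The changes of the brighter and the dimmer probe of TUBB differed by −1.25 on the log2 scale, and those of TUBA1A by −0.59. An exact permutation test of these differences over the 4 arrays gave a two-sided p of 0.667 for each gene, in a design that cannot go below 0.333. Whether the probes of a gene read different transcripts was not tested.

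**Figure D3:**
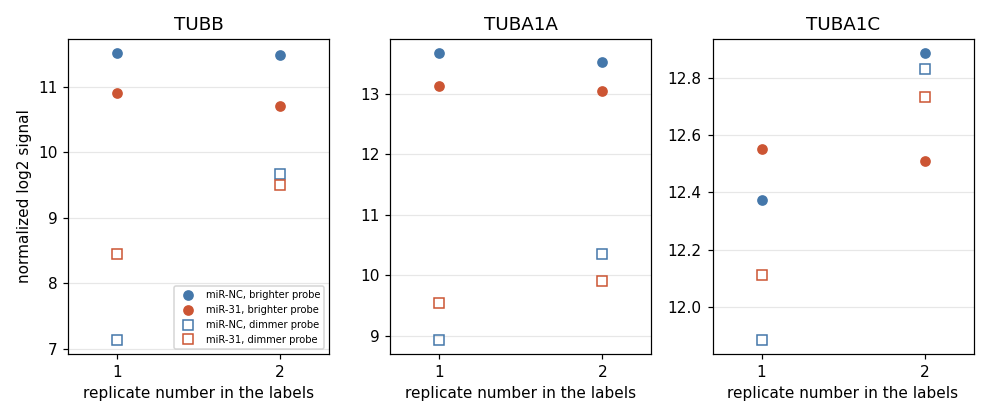
Normalized log2 signal (vertical axes, each panel with its own range) of the brighter (filled circles) and dimmer (open squares) probe of TUBB, TUBA1A and TUBA1C on the 4 arrays, by the replicate number in the labels (horizontal axis) and group (colour). For TUBB and TUBA1A the brighter probe separates the groups and the dimmer probe separates the arrays by their number, with TUBB at 7.14 and 8.44 on the arrays numbered 1 and at 9.67 and 9.50 on those numbered 2. The dimmer TUBA1C probe also separates the arrays by number, at 11.89 and 12.11 against 12.83 and 12.73.

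TUBB3, on chromosome 16, encodes the beta-tubulin isotype best known from neurons, which is also made in many carcinomas and has been studied for its association with resistance to taxanes. Its probe read 7.21 and 7.14 on the miR-NC arrays and 8.46 and 8.22 on the miR-31 arrays. Before normalization the signals were 240.2 and 190.7 against 313.4 and 362.4. Both miR-31 arrays were above both miR-NC arrays on each scale, and the gap between the groups exceeded the spread within them. TUBB3 rose 2.24-fold (log2 change 1.16 ± 0.22, SE; 95% confidence interval 0.67 to 1.66; limma adjusted p = 0.0168), the largest change and the smallest p among the 12 tubulin probes. Over the alternatives its change ranged from 0.88 to 1.30.

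Of 6 neuronal and neuroendocrine markers with a probe, CHGA and ENO2 were detected on all 4 arrays, and CHGB, SYP, INSM1 and NCAM1 on none. ENO2, the neuronal enolase, read 7.56 and 7.41 on the miR-NC arrays and 7.94 and 7.80 on the miR-31 arrays, a log2 change of 0.38 that did not pass (limma adjusted p = 0.343). CHGA, chromogranin A, read 5.51 and 5.81 on the miR-NC arrays and 5.80 and 5.56 on the miR-31 arrays (0.016, limma adjusted p = 0.986). After normalization both miR-31 values of ENO2 were above both miR-NC values, where 51.5% of all tested probes did not overlap either. Before normalization the ENO2 signals overlapped, at 296.2 and 217.2 in miR-NC against 234.3 and 287.1 in miR-31. The normalized values of CHGA overlapped. The unnormalized signal summed over the 6 probes, 4 of them at background, was 661.1 and 571.6 in miR-NC against 564.2 and 617.1 in miR-31. The part of such cells in the TUBB3 value was not tested.

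The other beta-tubulin genes did not pass. TUBB4B, an isotype of most tissues and of cilia, encoded on chromosome 9, read 10.62 and 11.01 in miR-NC against 11.03 and 10.93 in miR-31 (log2 change 0.17 ± 0.17, SE; limma adjusted p = 0.627). TUBB2A, an isotype abundant in brain, read 7.62 and 7.35 in miR-NC against 7.71 and 7.10 in miR-31 (−0.08 ± 0.27, SE; limma adjusted p = 0.904). The groups overlapped in both, and the 95% confidence intervals were −0.21 to 0.54 for TUBB4B and −0.69 to 0.53 for TUBB2A. The interval of TUBB4B leaves out a fall of the size seen at the brighter TUBB probe (−0.69), and that of TUBB2A just includes it.

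TUBB6, a beta-tubulin of more distant sequence encoded on chromosome 18, was close to background. Its brighter probe was detected on 3 of the 4 arrays, with detection p of 0.164 on miR-NC replicate 1, and read 5.19 and 5.55 in miR-NC against 5.61 and 5.53 in miR-31. The change of 0.20 ± 0.29 (SE) did not pass (limma adjusted p = 0.742). The dimmer TUBB6 probe (detection p from 0.283 to 0.787) and the TUBB2B probe (0.443 to 0.725) were not detected on any array and were not tested. TUBB2B is a neuronal isotype nearly identical to TUBB2A. Its unnormalized signals were 73.6 and 57.4 in miR-NC against 57.7 and 64.3 in miR-31, and those of the dimmer TUBB6 probe were 61 and 70.2 against 52.1 and 69.3. These signals only set a bound and give no order of the groups.

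The calls of the tubulin probes depended on the arrays and the model. Without miR-31 replicate 1 or without miR-31 replicate 2, calls were lost across all tested probes and not in tubulin alone. Each of these fits leaves 1 array in the miR-31 group. The changes were then −0.93 and −0.79 for TUBA4A, −0.63 and −0.71 for TUBA1B, and 1.05 and 1.30 for TUBB3. They were −0.78 and −0.58 for the brighter TUBB probe and −0.53 and −0.49 for the brighter TUBA1A probe. With the arrays aligned on their medians no tubulin probe passed, beside 106 of all 18354 tested probes. In that fit 1 tubulin probe was at an unadjusted limma p under 0.05, beside 6.63% of all tested probes. Without a variance trend only TUBB3 passed, beside 359 of all 18354 tested probes. All 5 probes that passed kept their direction under every alternative run.

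**Figure D4:**
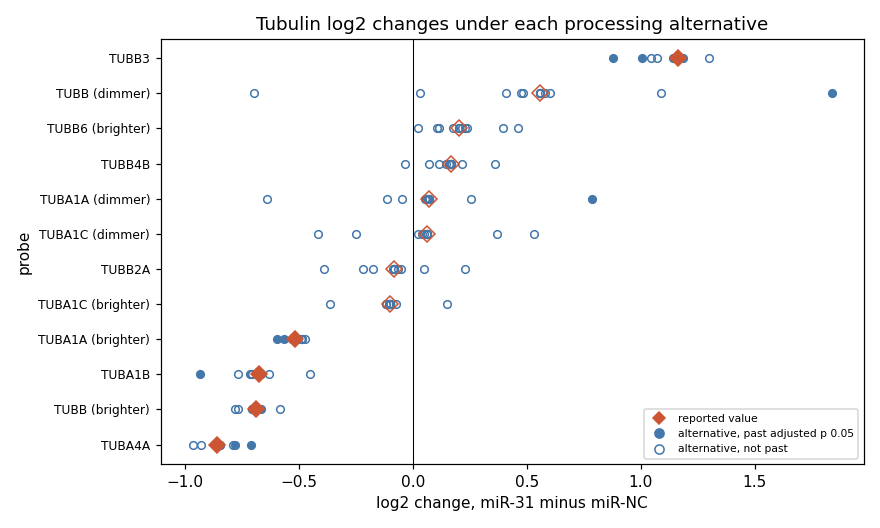
Log2 change of each tested tubulin probe (rows) as reported (diamonds) and under each processing alternative (circles), filled where the adjusted p was under 0.05. The 5 probes that passed stay on one side of 0, with TUBB3 between 0.88 and 1.30, while the dimmer probes of TUBB and TUBA1A spread to both sides.

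Genes whose profile over the 4 arrays was most like that of TUBB3 were ranked by Euclidean distance between log2 profiles centred on their own means, among 10745 genes. The nearest were H2BC5, a histone H2B gene (distance 0.0814), IFT20, a component of intraflagellar transport (0.0867), and IRF9, a subunit of the interferon-activated complex ISGF3 (0.102). They were followed by DIXDC1, a Wnt pathway protein that binds actin (0.140), and FLVCR2, a membrane transporter (0.157). Their log2 changes ran from 1.05 to 1.24, beside 1.16 for TUBB3. With 4 arrays, a small distance says only that the level was higher by a similar amount in both miR-31 arrays.

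Genes that work with tubulin were described through 7 lists of 107 genes in all, of which 79 had a tested probe. Each gene was represented by its brightest tested probe. In these lists 4 genes were lower and 4 were higher, where 7.66% of all 10754 tested genes passed (5.24% lower and 2.43% higher). The median log2 change was 0.06, against −0.02 over all tested genes. STMN4, among the higher genes, met the detection filter only through the miR-31 arrays.

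**Figure D5:**
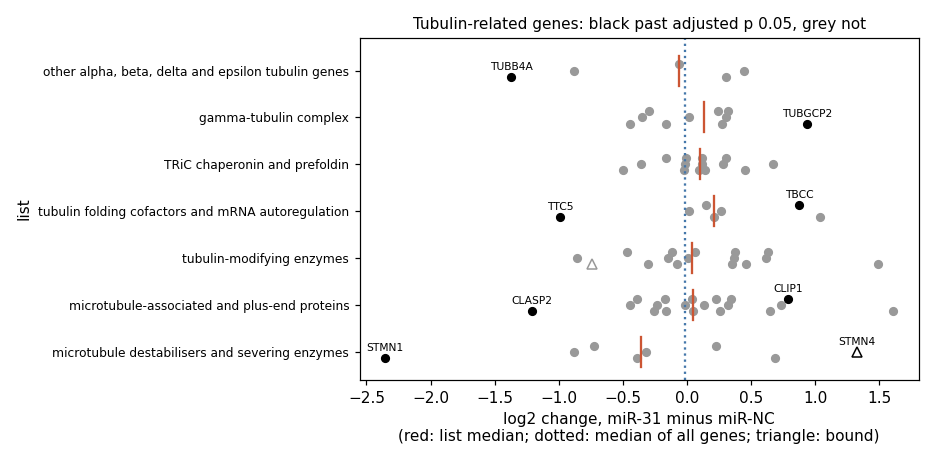
Log2 change, miR-31 minus miR-NC (horizontal axis), of the 79 tested genes in 7 tubulin-related lists (rows), with black points past an adjusted p of 0.05, grey points not, a red line at each list's median and a dotted line at the median of all tested genes (−0.02). Triangles stand at the bound for STMN4 (1.33), not detected in miR-NC, and TTLL6 (−0.74), not detected in miR-31; STMN1 lies at −2.35, and no list has more than 2 genes past the threshold.

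The other alpha-, beta-, delta- and epsilon-tubulin genes had 5 tested members of 10, with 1 lower and a median of −0.06. TUBB4A, a beta-tubulin of brain, read 7.79 and 7.46 in miR-NC against 6.29 and 6.21 in miR-31. It fell 2.59-fold (log2 change −1.37 ± 0.25, SE; limma adjusted p = 0.0151), with both miR-31 arrays below both miR-NC arrays, and lost its call without miR-NC replicate 1 (−1.16, adjusted p = 0.0540). TUBA3D, an alpha-tubulin of testis with near-identical copies, stood at −0.88 (adjusted p = 0.0646) at its brighter probe, and its second probe passed at −1.45 (adjusted p = 0.0199). TUBD1, which encodes delta-tubulin of centrioles, stood at 0.44 (adjusted p = 0.367).

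Microtubules grow from the gamma-tubulin ring complex. Of its 10 tested genes, 1 was higher, with a median of 0.13. TUBGCP2, a subunit of the ring, read 9.02 and 9.52 in miR-NC against 10.29 and 10.12 in miR-31. It rose 1.91-fold (log2 change 0.94 ± 0.20, SE; limma adjusted p = 0.0283), with no overlap of the groups, and lost its call without miR-NC replicate 1 (0.69, adjusted p = 0.0815). CDK5RAP2, which recruits and activates the ring, and TUBGCP4, another subunit, stood at −0.45 (adjusted p = 0.189) and −0.35 (adjusted p = 0.412).

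New tubulin chains are passed from prefoldin to the chaperonin TRiC. All 14 genes of these complexes were tested and none passed by limma, with 3 at an unadjusted p under 0.05, where 25.3% of all tested genes were, and a median of 0.11. Those 3 were the TRiC subunits CCT2 (−0.35, adjusted p = 0.146) and CCT5 (−0.50, adjusted p = 0.225) and the prefoldin subunit PFDN2 (0.68, adjusted p = 0.182). From TRiC the chains go to folding cofactors that assemble the dimer. That list, which also holds TTC5, had 7 tested genes, 1 lower and 1 higher, with a median of 0.21.

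TTC5, the factor that marks tubulin messenger RNAs for decay when free dimers are in excess, read 9.28 and 9.33 in miR-NC against 8.38 and 8.25 in miR-31. It fell 1.99-fold (log2 change −0.99 ± 0.18, SE; limma adjusted p = 0.0149), with the groups well apart. TBCC, the cofactor that triggers GTP hydrolysis and release of the finished dimer, read 8.17 and 8.35 in miR-NC against 9.25 and 9.02 in miR-31. It rose 1.84-fold (0.88 ± 0.19, SE; limma adjusted p = 0.0325), losing its call without miR-NC replicate 1 (0.77, adjusted p = 0.0865) and with no filter on dim probes (adjusted p = 0.0632). TBCD, another cofactor, stood at 1.04 (adjusted p = 0.255) at its brighter probe and at −0.68 (adjusted p = 0.166) at its second. The brighter TBCD probe ranged from 0.07 without miR-NC replicate 1 (adjusted p = 0.935) to 2.01 without miR-NC replicate 2, where it passed (adjusted p = 6.32e-06).

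Tubulin-modifying enzymes and partner proteins had 16 tested genes of 28 and none passed by limma. Of those tested, 4 were at an unadjusted limma p under 0.05, again beside 25.3% of all tested genes, and the median was 0.04. AGBL5, which removes glutamates from tubulin, read 6.73 and 8.42 in miR-NC against 8.87 and 9.26 in miR-31, and did not pass (1.49 ± 0.45, SE; limma adjusted p = 0.0858). The miR-NC arrays were far apart at this AGBL5 probe, the brighter one. Its change was 2.35 without miR-NC replicate 2 and 0.64 without miR-NC replicate 1. A second AGBL5 probe stood at 0.69 (limma adjusted p = 0.226). The glutamylase TTLL1 (0.62, adjusted p = 0.0936) did not pass either. TTLL6, another glutamylase, was not detected on the miR-31 arrays, which sets a bound of at least 1.67-fold lower, and did not pass (adjusted p = 0.1002).

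Proteins that bind along microtubules or at their growing ends had 19 tested genes of 23, with 1 lower, 1 higher and a median of 0.05. CLASP2, which stabilises growing ends, read 8.55 and 8.24 in miR-NC against 7.01 and 7.37 in miR-31. It fell 2.31-fold (log2 change −1.21 ± 0.24, SE; limma adjusted p = 0.0207), losing its call without miR-NC replicate 1 (−1.02, adjusted p = 0.0555). CLIP1, a partner of CLASP proteins at growing ends, read 9.60 and 9.97 in miR-NC against 10.48 and 10.67 in miR-31. It rose 1.73-fold (0.79 ± 0.18, SE; limma adjusted p = 0.0344), losing its call without miR-NC replicate 1 (0.61, adjusted p = 0.117) and with no filter on dim probes (adjusted p = 0.0623). A second CLIP1 probe stood at 0.67 (adjusted p = 0.135). MAP1B, a microtubule-binding protein of growing axons, stood at 1.61 (adjusted p = 0.0692) and passed without miR-NC replicate 2 (2.19, adjusted p = 0.000797). It stood at 1.03 without miR-NC replicate 1 (adjusted p = 0.146) and at 0.97 without miR-31 replicate 2 (adjusted p = 0.383).

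Destabilisers and severing enzymes had 8 tested genes of 12, with 1 lower and 1 higher. Their median of −0.36 was the lowest of the 7 lists. STMN1, or stathmin, which binds free dimers and promotes the shrinking of microtubules, read 9.40 and 8.86 in miR-NC against 6.98 and 6.58 in miR-31. It fell 5.11-fold at its brighter probe (log2 change −2.35 ± 0.26, SE; limma adjusted p = 0.00259), and its second probe stood at −0.48 (adjusted p = 0.328). STMN4, a stathmin relative of neurons, was below detection on both miR-NC arrays and detected in miR-31, where it was at least 2.51-fold higher (limma adjusted p = 0.00901). That bound sets the miR-31 mean against, for each miR-NC array, the higher of the lowest detected signal and the probe's own. STMN4 met the detection filter only through the miR-31 arrays, where it was higher, so its p is not free of that selection. FIGNL1, a relative of the severing enzyme fidgetin that also acts in DNA repair, stood at −0.88 (adjusted p = 0.0582), and its second probe passed at −1.52 (adjusted p = 0.0268).

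The 8 genes of these lists that passed at their brightest probe kept their direction without miR-31 replicate 1 and without miR-31 replicate 2. In those fits calls were lost across all tested probes and not in these genes alone. With the arrays aligned on their medians STMN1 and STMN4 alone passed, beside 106 of all 18354 tested probes. Without a variance trend TUBB4A, STMN1 and STMN4 did, beside 359. STMN4 was not tested where detection on all 4 arrays was required.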

How the data were processed

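Illumina bead arrays measured messenger RNA in LNCaP cells, 2 arrays per group. The authors deposited non-normalized signal intensity for 47231 probes, per the file headers, with a score beside each intensity that the headers call a detection p-value. In the deposited table that score is near 1 for bright probes, so detection p was taken as 1 minus it. The submitters' processing notes list BeadStudio. Its version is not given in the sources used here. The authors' deposited normalized intensity values (column medians 14.3, 25.1% of values at or below 0) served as an alternative, raised to a floor of 16 before log2.

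The intensity values went through limma 3.58.1 under R 4.3.3 (neqc with background from detection p, offset 16, quantile normalization, log2), then lmFit and eBayes with an intensity trend. Tests were two-sided and adjusted by Benjamini-Hochberg over 18354 probes (38.9%) with detection p under 0.05 on at least 2 arrays. The fit had 2 residual and 7.19 prior degrees of freedom. With 2 arrays against 2 the smallest exact permutation p is 0.333, so each call leans on limma's pooling of the spread over probes, and precision is limited by the number of arrays. The script was tested on simulated data.

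Probes were named from the platform annotation (30113 with 1 symbol, 8 with several, 17110 with none), with symbols updated by Entrez identifier. The text names all 10 tubulin genes, up to 3 tested genes with the smallest p in each related list, and the 5 genes nearest to TUBB3, the tubulin probe with the smallest p. The members, lists and tests were chosen with earlier results of these data known. The alternatives were other background, offset, normalization, filter, variance and threshold settings, the authors' values, leaving out each array, the replicate number as a block and the mean of a gene's probes.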

Additional observations from a re-analysis of the deposited data

How the results depend on the processing

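Of 1132 probes past the threshold overall (34.0% higher), 106 passed with arrays aligned on their medians (57.5% higher), 359 without a variance trend (20.1% higher) and 2033 at a threshold of 0.1; leaving out 1 array gave 0 to 2057, with 0 by limma without either miR-31 array (3033 probes had an unadjusted p under 0.05 without replicate 1 and 2748 without replicate 2), 837 without miR-NC replicate 1 and 2057 without miR-NC replicate 2. Of the tubulin probes, 5 passed; 0 did with aligned medians, 3 with cyclic loess, 1 without a variance trend and 0 to 6 with 1 array left out (3 without miR-NC replicate 1). Of the related genes, 8 passed; 2 did with aligned medians, 3 without a variance trend, 14 at a threshold of 0.1 and 0 to 16 with 1 array left out (4 without miR-NC replicate 1 and 16 without miR-NC replicate 2). With the replicate number as a block, 2536 probes (47.6% higher), 5 tubulin probes and 17 related genes passed; over all tested probes the differences between the arrays numbered 2 and 1 correlated at 0.22 across the groups, and with 2 pairs the numbers do not establish pairing.

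Sign changes occurred in 6 tubulin probes, none of which passed the threshold in the reported fit. With aligned medians the dimmer TUBA1A probe stood at −0.045. With 1 array left out, it ranged from −0.64 to 0.79, the dimmer TUBB probe from −0.69 to 1.84, TUBA1C from −0.36 to 0.15 (ILMN_3251341) and −0.42 to 0.53 (ILMN_1742167), TUBB2A from −0.39 to 0.23 and TUBB4B from −0.033 to 0.36. Over all named tubulin probes and alternatives, 117 values kept direction and call, 26 lost the call, 2 gained it and 10 changed sign; for the named related genes the numbers were 224, 34, 12 and 0. The kept values include those of probes and genes that had not passed and so had no call to lose. All 26 lost calls fell on the 5 tubulin probes that passed, each with 13 alternatives. The cause of these differences was not tested. Dim probes such as those of TUBB6 and TUBB2B, near or below background, set no limit on a change.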
